A study of Mus musculus with 7 samples.

Results

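Cxcl1, Cxcl2, Cxcl3 and Cxcl5 encode secreted CXC chemokines that attract neutrophils, and their mRNAs were followed here across leukocyte classes and days after myocardial infarction in the mouse. The members were taken by symbol, and each of the 7 count matrices held a row for all 4 genes, of the 27998 genes annotated in the CD45+ libraries and the 31053 annotated in the pools (27514 shared). Heart leukocytes of C57BL6/J mice, given as male for every library except the blood and heart pool, were profiled with droplet single-cell RNA sequencing, which counts transcripts as unique molecular identifiers (UMIs). The infarct was made by permanent ligation of the left anterior descending coronary artery, and the labels name no transgene, mutant allele or drug.

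Libraries of CD45+ cells came from pools of 5 mice each for steady state and days 1, 3 and 5 after ligation, and of 3 mice for day 7. The steady state hearts had no infarct, although their condition label reads as for the others. These cells were taken from collagenase and hyaluronidase digests at 37 °C, were unlabelled by an intravenous CD45.2 antibody, and had passed a step that lowered neutrophil numbers. A CD11b+ heart pool, digested in the same way, carried Hashtag 1 for day 1 (5 mice), Hashtag 2 for day 3 (5 mice) and Hashtag 3 for day 5 (3 mice). A further pool held CD11b+ cells, sorted free of Ter119, B220 and NK1.1, of blood and heart from mice aged 8 to 10 weeks without surgery, after a sham operation (day 1 and day 3) and after infarction (day 1 and day 3), under 7 hashtags that the labels do not pair with conditions. Its hearts were dissociated mechanically, and its Ly6G+ and Ly6G- cells were adjusted to near equal numbers. Each time point of an experiment was thus 1 pool of mice. A p-value for days below measures the spread between the CD45+ and CD11b+ experiments after their mean difference was removed. The same holds for the tests of whether the time course differed between the classes. A p-value for neutrophils against monocytes/macrophages measures how their difference varied over the units of day and experiment. None of them measures the spread between mice. The variance behind each p-value was in part borrowed from the other genes by edgeR. In the fits of days each gene had 2 residual degrees of freedom, beside a prior of 13.9 in neutrophils and 3.99 in monocytes/macrophages.

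These chemokines bind the G protein-coupled receptor Cxcr2, and mouse Cxcr1 is also known to be used by some of them. Binding signals through Gi proteins to draw neutrophils out of the blood and into tissue. Their genes are classic targets of NF-kB downstream of interleukin-1, tumour necrosis factor and Toll-like receptors, and their mRNAs are short-lived because proteins such as Zfp36 and Zc3h12a bind and destabilise them. Cxcl1 and Cxcl2 are known from both leukocytes and stromal cells, whereas Cxcl5 is known mainly from epithelial, stromal and endothelial sources and platelets.

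The 4 genes lie on the plus strand of chromosome 5 (GRCm38, GENCODE M21), in the order Cxcl5 (chr5:90759360-90761624), Cxcl3 (chr5:90786103-90789600), Cxcl1 (chr5:90891241-90893115) and Cxcl2 (chr5:90903871-90905938). They span 147 kb that also holds Ppbp, Pf4 and Cxcl15, and no other annotated gene overlapped any of the 4. Promoter sequence from RefSeq (GRCm38.p6) was at hand for 3 of the 4 members, which are shown because Cxcl1, Cxcl2 and Cxcl3 carry most of the values below. Each is written 5′ to 3′ on the plus strand, from 250 bases before the RefSeq start up to that start, or up to the GENCODE start where this lay further upstream. Capitals mark matches to the kB-type motif (GGG, any 2 bases, then TTTCC) on either strand and to the TATA-type motif TATAAA.
Cxcl1 (chr5:90890995-90891240): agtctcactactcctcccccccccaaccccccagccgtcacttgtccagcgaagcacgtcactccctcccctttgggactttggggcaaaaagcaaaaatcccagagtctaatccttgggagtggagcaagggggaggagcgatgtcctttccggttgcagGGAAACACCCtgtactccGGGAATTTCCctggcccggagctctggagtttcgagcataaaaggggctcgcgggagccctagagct
Cxcl2 (chr5:90903649-90903870): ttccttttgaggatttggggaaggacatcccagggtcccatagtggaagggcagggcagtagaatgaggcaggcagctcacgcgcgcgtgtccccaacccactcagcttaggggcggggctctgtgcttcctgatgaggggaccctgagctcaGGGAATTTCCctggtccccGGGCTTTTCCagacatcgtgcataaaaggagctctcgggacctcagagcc
Cxcl3 (chr5:90785851-90786100): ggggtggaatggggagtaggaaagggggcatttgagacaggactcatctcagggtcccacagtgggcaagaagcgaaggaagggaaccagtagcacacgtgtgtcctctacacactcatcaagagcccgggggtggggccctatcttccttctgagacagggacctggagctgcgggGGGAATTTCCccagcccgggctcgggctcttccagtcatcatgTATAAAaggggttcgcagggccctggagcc

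All 3 promoters held the kB-type motif, against 1.41% of the 32851 promoters of the table searched over the same 250 bases on both strands. The letters GGGAATTTCC, read off after the sequences were seen, were present in 0.0852% of all promoters. They began 71 bases before the RefSeq start in Cxcl1, 97 in Cxcl2 and 73 in Cxcl3. The printed sequences of Cxcl1 (246 bases) and Cxcl2 (222 bases) end short of that start, so distances to their printed ends are smaller. Cxcl1 had an additional match on the minus strand, and Cxcl2 an additional match on the plus strand. The exact string TATAAA was found in Cxcl3 alone of the 3, 30 bases before the RefSeq start (12.4% of all promoters). Near their ends Cxcl1 and Cxcl2 read cataaaagg where Cxcl3 reads TATAAAagg, so they differ from the motif in its first letter. The AP-1-type motif TGANTCA was found in none of them (6.75% of all promoters). A match is a string of letters, and binding was not measured. Transcripts of Cxcl2 and Cxcl3 shared a stretch of 157 identical bases, but within the last 500 bases, near where 3′ libraries are read, the longest stretch shared by any pair of members was 16 bases.

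The analysis kept 4745 cells of the CD45+ libraries (median 6688 UMIs), 4263 of the CD11b+ heart pool (18232) and 9999 of the pool of blood and heart (4282). Clusters named from marker genes gave 427 neutrophils and 2940 monocytes/macrophages in the CD45+ libraries, 1480 and 2783 in the CD11b+ heart pool, and 6362 and 3538 in the blood and heart pool. At least 1 UMI of every one of 14 neutrophil markers was present in each neutrophil sum of digested hearts, and these markers made up 49869 to 221234 CPM there (the UMIs of a gene scaled to a class total of 1000000 UMIs) against 166 to 18420 CPM in monocytes/macrophages. The CD45+ monocytes/macrophages of day 1 stood apart, since they held the 18420 CPM and the next highest sum held 2184 CPM. The 18 monocyte/macrophage markers separated the day 1 classes little. On CD45+ day 1 they were at 10855 CPM in monocytes/macrophages and 13680 CPM in neutrophils, and on pool day 1 at 10610 and 9393 CPM. On days 3 and 5 they were at 18290 to 47614 CPM in monocytes/macrophages and 5189 to 13271 CPM in neutrophils. Cell barcodes were shared between libraries in 0 to 28 cases per pair.

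In monocytes/macrophages of digested hearts the mRNAs of all 4 chemokines were highest on day 1 of the days in each experiment, and in neutrophils those of Cxcl2 and Cxcl3 were, with Cxcl5 at 18 UMIs or fewer. In the fit Cxcl3 fell 15.2-fold in neutrophils by day 3 and 43.3-fold by day 5. Cxcl1 and Cxcl2 did not pass the test there. The fit scales sums by TMM (a trimmed mean of log ratios between sums), under which the median gene barely moved between these days. Relative to total counts the fall of Cxcl3 was 8.79-fold (CD45+) and 10.4-fold (pool) by day 3, and 28.1-fold and 18.1-fold by day 5. In monocytes/macrophages all 4 members fell from day 1 to day 5, by 2.06-fold (Cxcl1) to 57.6-fold (Cxcl3). Of the totals, Cxcl3 fell 152-fold in the CD45+ libraries and 17.1-fold in the pool. The Cxcl1 call was not kept under total counts alone, and the Cxcl5 UMIs of day 1 came from few cells. Neutrophil markers in this class went down over the same days, from 18420 to 521 CPM in the CD45+ libraries and from 2184 to 638 CPM in the pool, and their part in these falls was not tested. The fit of the classes is scaled by TMM as well, so its values are not shares of a class's transcripts. In it neutrophils had 5.42-fold more Cxcl2 and 3.00-fold more Cxcl3 than monocytes/macrophages of the same hearts. Cxcl1 was 2.09-fold lower in neutrophils. As shares of the totals, Cxcl2 was 1.58- to 7.49-fold higher in neutrophils over the units of day and experiment, and Cxcl1 1.09- to 5.28-fold lower. Cxcl3 was up to 5.59-fold higher. On CD45+ day 1 the levels of Cxcl3 differed by only 1.03-fold. In UMIs per cell neutrophils had less Cxcl2 and Cxcl3 in most units of day and experiment.

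**Figure D1:**
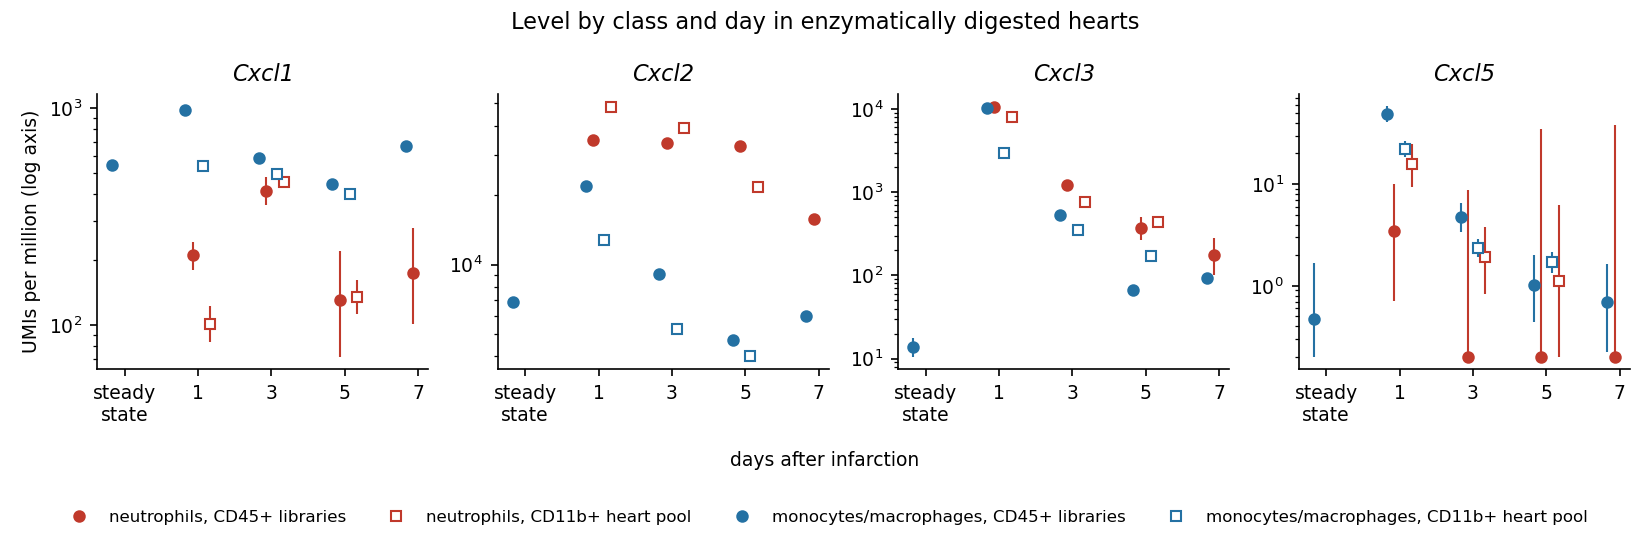
Level of each chemokine mRNA (CPM, log axis) by day in neutrophils (red) and monocytes/macrophages (blue) of the CD45+ libraries (filled circles) and the CD11b+ heart pool (open squares), with exact 95% Poisson intervals, which cover counting error only. Levels of 0 are drawn at 0.2; Cxcl3 is at or above 2925 CPM in all 4 day 1 values and at or below 1209 CPM in every other one.

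Cxcl3, a close paralogue of Cxcl2, showed the steepest time course. In neutrophils of the CD45+ libraries its level was 10638 CPM on day 1, 1209 CPM on day 3 and 373 CPM on day 5. In neutrophils of the CD11b+ heart pool it was 7932 CPM on day 1, 764 CPM on day 3 and 437 CPM on day 5. Both day 1 values stood above all 4 later values, with no overlap. The fitted log2 difference was -3.92 for day 3 against day 1 (SE 0.530, adjusted p = 0.00286, edgeR) and -5.44 for day 5 against day 1 (SE 0.575, adjusted p = 0.000283), with the same direction in both experiments. Cxcl3 was the 1 member of 3 tested in neutrophils that was called lower on day 3, where 1.63% of 6184 genes were called lower and 0.356% higher. It was also the 1 called lower on day 5, where 5.03% were called lower and 1.79% higher. Day 5 against day 3 gave a log2 difference of -1.52 (95% interval -2.57 to -0.466, adjusted p = 1.00); here 0% of genes were called, and 122 had an unadjusted p under 0.05.

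The same gene in monocytes/macrophages of the CD45+ libraries stood at 13.8 CPM in the steady state sum and at 10300, 529, 67.5 and 92.2 CPM in those of days 1, 3, 5 and 7. In the CD11b+ heart pool the class had 2925 CPM on day 1, 355 CPM on day 3 and 171 CPM on day 5. Day 1 was again above every other day in both experiments, although the CD45+ day 1 level was well above that of the pool. The difference of day 5 against day 1 was called (log2 -5.85, SE 0.849, adjusted p = 0.0165), whereas that of day 3 against day 1 was of similar size to the one in neutrophils but missed the threshold (log2 -4.06, SE 0.760, adjusted p = 0.0854). The day 3 difference was past the threshold in 6 of 14 alternatives (adjusted p from 4.45e-08 to 0.577), among them DESeq2, no filter on low counts and leaving out either day 1 sum, and its log2 value moved to -2.62 when CD45+ day 1 was left out and to -4.92 when pool day 1 was. The day 5 value rested on single libraries in its size: log2 -4.62 without CD45+ day 1, -4.60 without CD45+ day 5, -6.93 without pool day 1 and -7.26 without pool day 5. In neutrophils the size of the day 5 difference moved to -6.17 without pool day 5.

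Cells followed the levels. After each cell was thinned to 2000 UMIs, Cxcl3 was found in 93.7% of 190 neutrophils of CD45+ day 1 (exact 95% binomial interval 89.2% to 96.7%), 33.3% of 135 on day 3 and 29.3% of 41 on day 5. Without thinning these shares were 99.1%, 45.2% and 31.7%. In neutrophils of the CD11b+ heart pool the thinned shares were 78.7%, 29.6% and 22.4% on days 1, 3 and 5, against 82.1%, 39.4% and 31.2% unthinned. The day 1 shares lay above the later ones beyond counting error in both experiments. Monocytes/macrophages went from 85.2% to 27.3% and 6.32% in the CD45+ libraries and from 55.8% to 22.8% and 15.6% in the CD11b+ heart pool, where unthinned shares were 99.3%, 52.2% and 14.1%, and 76.3%, 60.1% and 51.9%. At steady state 4 of 530 thinned monocytes/macrophages had a Cxcl3 UMI (0.755%). After day 1 the transcripts were held by few cells: the top 10% of neutrophils had 75.0% to 83.6% of the Cxcl3 UMIs of their sum on days 3 and 5, and 33.6% and 41.2% on day 1.

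**Figure D2:**
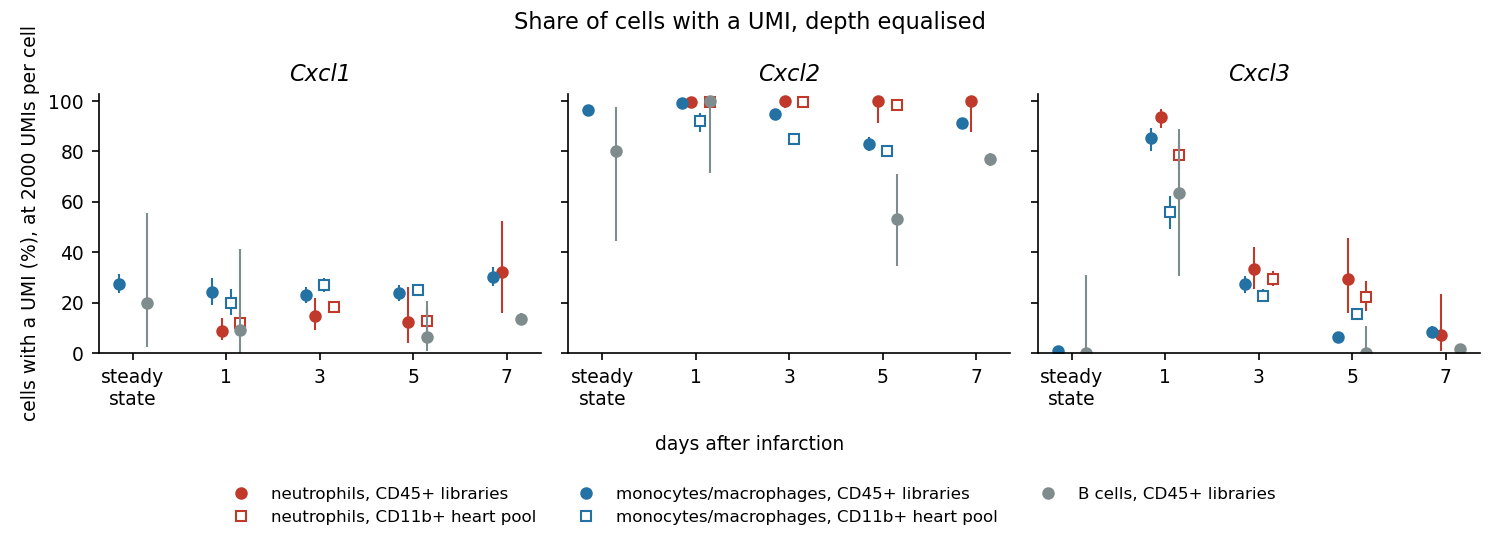
Share of cells (%) with a UMI of Cxcl1, Cxcl2 or Cxcl3 after thinning each cell to 2000 UMIs, by day, for neutrophils (red), monocytes/macrophages (blue) and B cells (grey, where at least 10 cells were deep enough), with exact 95% binomial intervals. Cxcl3 drops from 93.7% and 78.7% of neutrophils on day 1 to 33.3% and 29.6% on day 3, whereas Cxcl2 stays at or above 98.6% of neutrophils on days 1 to 5.

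Transcripts free in the cell suspension can also give UMIs. B cells, which should make little of these chemokines, were read for comparison, and the source of their UMIs was not tested. The 13 B cells of the CD45+ day 1 library (median 2794 UMIs) had 37 Cxcl3 UMIs, or 702 CPM, and 63.6% of the 11 deep enough had a UMI after thinning (92.3% of the 13 without). The neutrophils of that library (10638 CPM; median 3393.5 UMIs) and its monocytes/macrophages (10300 CPM; median 9293 UMIs) stood far above this level. On day 7, 2.44% of 985 B cells had a Cxcl3 UMI (median 2777 UMIs).

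Cxcl2, the chemokine also called MIP-2, was present in nearly all neutrophils of digested hearts. Its level in the CD45+ libraries was 34604 CPM on day 1, 33611 CPM on day 3 and 32800 CPM on day 5. In the CD11b+ heart pool neutrophils had 48300 CPM on day 1, 39222 CPM on day 3 and 21658 CPM on day 5. The levels of the CD45+ libraries were thus nearly level over the days, while those of the pool dropped 2.23-fold to day 5. Neither comparison with day 1 passed the test, at log2 -0.85 for day 3 (95% interval -1.99 to 0.295, adjusted p = 0.437) and -1.62 for day 5 (95% interval -2.79 to -0.450, adjusted p = 0.0865). DESeq2 called the latter (log2 -1.58, adjusted p = 0.00635), as did edgeR with no filter on low counts (log2 -1.67, adjusted p = 0.0184) and without CD45+ day 1 (log2 -1.80, adjusted p = 0.0261). The log2 difference of day 5 against day 3 was -0.77 (95% interval -1.91 to 0.377).

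Scaling bears on these neutrophil values. TMM scaling placed the median gene at 0.00 (day 3) and -0.02 (day 5) relative to day 1, and scaling by total counts alone moved that median up by 0.67 and 0.92 log2. Values fitted by edgeR are relative to totals rescaled by TMM, while CPM are relative to the total itself. Under total counts alone 88.7% of the calls of day 3 were higher on that day, against 17.9% under TMM, and for day 5 the shares were 92.8% and 26.3%. In monocytes/macrophages the shift was 0.21 and 0.25 log2, the higher share of day 3 calls was 0% under total counts and 17.6% under TMM, and that of day 5 calls was 66.0% and 43.1%. Cxcl3 and Cxcl2 kept their direction under both scalings in both classes, and under total counts alone the log2 difference of Cxcl3 in neutrophils was -3.24 on day 3 (adjusted p = 0.00558) and -4.45 on day 5 (adjusted p = 0.000509).

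In monocytes/macrophages Cxcl2 stood at 6856 CPM in the steady state sum of the CD45+ libraries and at 21844, 9137, 4701 and 5995 CPM in those of days 1, 3, 5 and 7. The CD11b+ heart pool gave 12758 CPM on day 1, 5234 CPM on day 3 and 3998 CPM on day 5. Both experiments had their highest value on day 1 and no later value overlapped it. Day 5 was lower than day 1 (log2 -2.19, SE 0.206, adjusted p = 0.00668). Day 3 against day 1 missed the threshold narrowly (log2 -1.49, SE 0.200, adjusted p = 0.0521). It was past the threshold in 7 of 14 alternatives (adjusted p from 4.86e-06 to 0.869; log2 from -1.63 to -1.25), including DESeq2, no filter on low counts, classes from each cell's own markers and leaving out either day 1 sum. Thinned shares of cells with a Cxcl2 UMI were 99.2%, 94.99% and 83.0% on days 1, 3 and 5 in the CD45+ libraries and 92.1%, 85.1% and 80.3% in the pool. B cells of day 7 had 731 CPM and a thinned share of 77.0%, so the share says little for this gene, whereas the level of monocytes/macrophages in that library was 5995 CPM.

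Cxcl1, also called KC, was lower in neutrophils than in monocytes/macrophages on each day. Neutrophils had 209 CPM on day 1, 416 CPM on day 3 and 131 CPM on day 5 in the CD45+ libraries, and 102, 454 and 135 CPM in the CD11b+ heart pool. Day 3 was the highest of the 3 days in both experiments. The log2 difference of day 3 against day 1 was 0.85 (95% interval -0.0530 to 1.75, adjusted p = 0.318), and the call appeared under total counts alone (log2 1.55, adjusted p = 0.0363) and without CD45+ day 1 (log2 1.59, adjusted p = 0.00255). Day 5 against day 3 gave -1.96 (95% interval -2.90 to -1.02; unadjusted p = 0.000443, adjusted p = 0.608), and it passed with no filter on low counts (adjusted p = 0.00422), without CD45+ day 1 (adjusted p = 9.19e-07) and without pool day 1 (adjusted p = 1.06e-06). The difference of day 5 against day 1 was -1.11 (95% interval -2.07 to -0.155, adjusted p = 0.148), and it passed without pool day 1 (log2 -1.79, adjusted p = 0.00103). The totals of the experiments differed in direction here, 1.55-fold lower on day 5 in the CD45+ libraries and 1.33-fold higher in the pool, and the fit on total counts alone gave log2 -0.12. The thinned share of CD45+ neutrophils with a Cxcl1 UMI, 8.95% on day 1, was at that of the B cells of the same library (9.09% of 11 cells), and the top 10% of neutrophils held 84.4% to 92.9% of the Cxcl1 UMIs on days 1 to 5 in both experiments.

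Monocytes/macrophages of the CD45+ libraries held 547 CPM of Cxcl1 in the steady state sum and 981, 589, 448 and 665 CPM in those of days 1, 3, 5 and 7. In the pool the class had 539, 494 and 403 CPM on days 1, 3 and 5. Levels ran down from day 1 to day 5 in both experiments, by 2.19-fold and 1.34-fold of the totals. Among the finer clusters of CD45+ cells, Cxcl1 was highest, at 1229 CPM, in 62 cells led by Fabp4, Dcn and Igfbp7. That cluster held 9 and 18 of the monocytes/macrophages of days 3 and 5, and its part in these levels was not tested. The cluster led by Saa3, Arg1 and Mt2, mostly of day 1, had 1098 CPM. The fall to day 5 was called (log2 -1.04, SE 0.228, adjusted p = 0.0406) and that to day 3 was not (log2 -0.66, adjusted p = 0.211). It was past the threshold in 6 of 14 alternatives. Leaving out CD45+ day 3 (adjusted p = 0.0638), CD45+ day 5 (log2 -0.73, adjusted p = 0.310), pool day 3 (adjusted p = 0.0567) or pool day 5 (adjusted p = 0.0803) ended the call, as did total counts alone (log2 -0.79, adjusted p = 0.0683), classes from each cell's own markers (adjusted p = 0.0620), leaving out cells of finer clusters with another name (adjusted p = 0.0530) and dropping the experiment term (adjusted p = 0.443).

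Cxcl5, also called LIX, was close to absent from neutrophils. CD45+ neutrophils held 3 UMIs on day 1, and 0 on day 3 and day 5, where 3 counts would be 7.08 CPM on day 3. In pool neutrophils all 18 UMIs of day 1 came from 1 cell, and 8 and 1 UMIs were found on days 3 and 5. It was too low there to be tested between days within neutrophils or between the classes. Monocytes/macrophages had 49.2 CPM on day 1, 4.78 CPM on day 3 and 1.02 CPM on day 5 in the CD45+ libraries, and 22.2, 2.37 and 1.70 CPM in the pool. Day 1 exceeded the later days in both experiments, with 129 UMIs in 13 of 271 cells and 126 UMIs in 7 of 241 cells, and the highest single cells held 64 and 70 of them. Steady state had 2 UMIs and day 7 had 5, each in 1 cell.

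The fall of Cxcl5 was called on day 3 (log2 -3.54, SE 0.433, adjusted p = 0.0476) and on day 5 (log2 -4.55, SE 0.460, adjusted p = 0.00770). It was the 1 member of 4 called on day 3, where 0.386% of 10871 genes were called lower and 0.0828% higher. On day 5 all 4 members were called lower, where 6.8% of genes were lower and 5.15% higher. The day 3 call was past the threshold in 8 of 14 alternatives, and it ended without CD45+ day 3 (adjusted p = 0.0671) and without pool day 3 (adjusted p = 0.155). The size on day 5 moved to log2 -3.89 without CD45+ day 5 and -5.83 without pool day 5. No member was called for day 5 against day 3 (log2 -0.38 for Cxcl1, -0.70 for Cxcl2, -1.79 for Cxcl3 and -1.01 for Cxcl5), where 0.0184% of genes were called higher and 0% lower. Of the fibroblast markers in these sums, 4 of 8 had UMIs on CD45+ day 1 (132 CPM), with Col1a1, Col1a2, Pdgfra and Postn at 0. All together they were at 439 and 614 CPM on days 3 and 5. In the pool they were at 283, 290 and 294 CPM. The part of stromal transcripts in the Cxcl5 counts, which came from few cells, was not tested. A cluster of 62 CD45+ cells led by Fabp4, Dcn and Igfbp7 had 32 Cxcl5 UMIs (38.1 CPM). It held 10 monocytes/macrophages of steady state and 9, 18 and 3 of days 3, 5 and 7, while those of day 1 lay in other clusters. The cluster led by Saa3, Arg1 and Mt2, with 246 of its 248 cells from day 1, had 129 Cxcl5 UMIs. Without cells of finer clusters carrying another name the day 3 difference was log2 -4.39 (adjusted p = 0.0518).

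**Figure D3:**
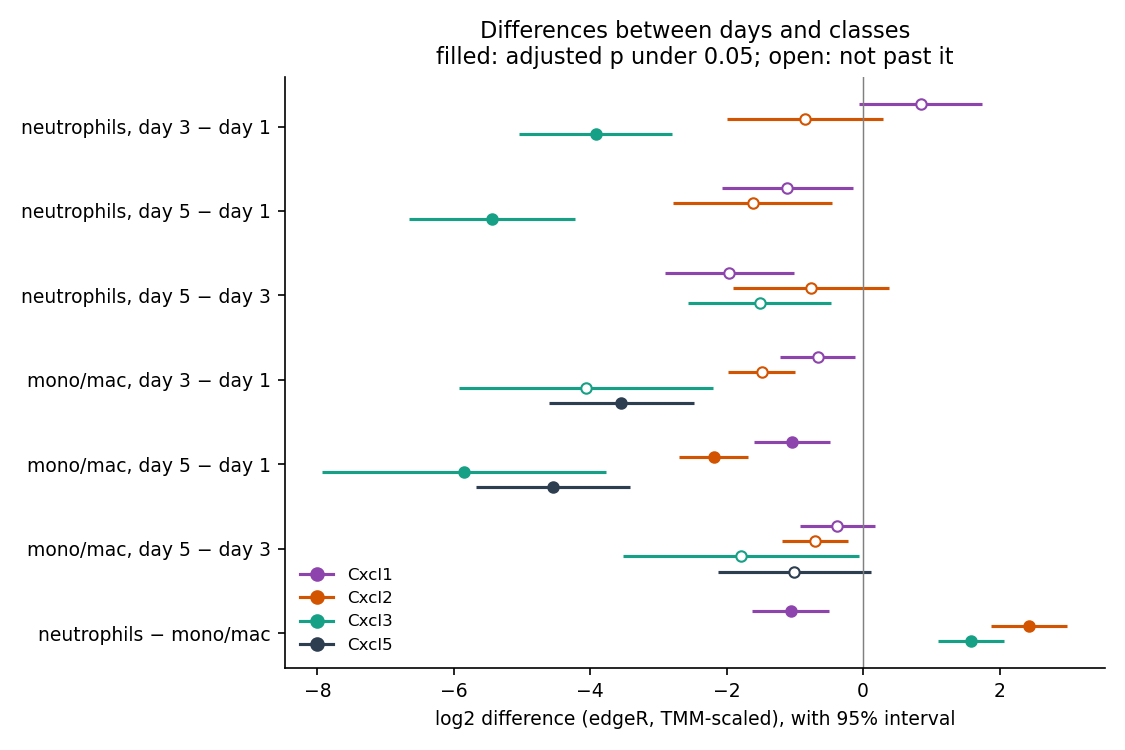
Fitted log2 differences (edgeR, TMM-scaled) with 95% intervals for each member and comparison; the class named first is compared with the second, and filled points have an adjusted p under 0.05. Cxcl3 lies at -3.92 and -5.44 in neutrophils and -5.85 in monocytes/macrophages on day 5, while Cxcl2 and Cxcl3 are above 0 and Cxcl1 below 0 in neutrophils against monocytes/macrophages.

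Neutrophils and monocytes/macrophages of the same day and experiment were compared next. Cxcl2 was higher in neutrophils in 6 of 6 units, by 1.58-, 3.68- and 6.98-fold on days 1, 3 and 5 in the CD45+ libraries and by 3.79-, 7.49- and 5.42-fold in the pool. Cxcl3 was also higher in 6 of 6, but by only 1.03-fold on CD45+ day 1, where the levels of 10638 and 10300 CPM nearly met, and by 2.15- to 5.59-fold in the other units. Cxcl1 was lower in 6 of 6, by 1.09-fold on pool day 3 to 5.28-fold on pool day 1. The fitted log2 differences were 2.44 for Cxcl2 (SE 0.263, adjusted p = 1.65e-06), 1.58 for Cxcl3 (SE 0.229, adjusted p = 2.99e-05) and -1.06 for Cxcl1 (SE 0.263, adjusted p = 0.00283). All 3 members tested were called, on a background where 23.2% of 8684 genes were higher in neutrophils and 33.9% were lower. The fit's median gene lay at -0.22, and at -0.59 under total counts alone, where 25.8% of calls were higher against 40.7% under TMM.

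In share of transcripts, neutrophils were 41.4% of the cells of CD45+ day 1 and held 34.4% of its Cxcl2 UMIs, 25.5% of its Cxcl3 UMIs and 6.60% of its Cxcl1 UMIs. In the pool on day 3 they were 46.4% of the cells and held 45.3%, 19.2% and 9.22%. These shares follow the sort and the lowering of neutrophil numbers, and are no estimate for the heart. In UMIs per cell the order of the classes was the reverse of that in CPM in 5 of 6 units for both Cxcl2 and Cxcl3. Cxcl2 stood at 139 in neutrophils and 211 in monocytes/macrophages of CD45+ day 1 and at 105 and 107 on day 3, and in the pool at 214 and 300.1, 163 and 170.1, and 88.3 and 126 on days 1, 3 and 5. Cxcl3 stood at 42.8 and 99.6 per cell on CD45+ day 1 and at 3.17 and 11.5 on pool day 3. CD45+ day 5 was the exception, with 85.7 and 45.6 for Cxcl2 and 0.976 and 0.656 for Cxcl3. Neutrophils held fewer UMIs in all, with medians of 3393.5 and 9293 per cell in the classes of CD45+ day 1 and 3852.5 and 28798.5 in those of pool day 3, so the order in CPM is one of shares of a class's transcripts.

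Whether the time course differed between the classes was tested as an interaction. No member passed (Cxcl5 rested there on neutrophil sums of 0 to 18 UMIs), on a background of 0% of 10274 genes called higher and 0.0195% called lower for day 3 against day 1, and 0.0973% and 0.0487% for day 5 against day 1. Cxcl1 came nearest on day 3, with a log2 change 1.65 higher in neutrophils (95% interval 0.582 to 2.73, unadjusted p = 0.00567, adjusted p = 0.229), and it passed without CD45+ day 1 (log2 1.97, adjusted p = 0.00153) and with no filter on low counts (log2 1.67, adjusted p = 0.0204). The interval for Cxcl3 was -1.45 to 2.00 on day 3 and -1.44 to 2.22 on day 5, and that for Cxcl2 was -0.138 to 1.68 and -0.372 to 1.45, so sizeable differences between the classes lie within them. Median log2 over all genes was 0.25 and 0.10 in these fits, and total counts alone raised it by 0.32 and 0.68, with 50% and 97.1% of calls higher against 0% and 66.7% under TMM.

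The days also differed in which finer clusters made up a class. On CD45+ day 1, 246 of 271 monocytes/macrophages were in a cluster led by Saa3, Arg1, Mt2 and Csf3, which had 11627 CPM of Cxcl3, 24573 CPM of Cxcl2 and 1098 CPM of Cxcl1. On day 3, 459 of 678 were in a cluster led by Plac8, Chil3 and Ms4a4c (493 CPM of Cxcl3), and on day 5, 494 of 807 were in one led by Ms4a7, Gpnmb and Ctsd (71.3 CPM of Cxcl3). Of the neutrophils, 212 of 216 on CD45+ day 1 were in a cluster led by Ngp, Retnlg and Lcn2 (10330 CPM of Cxcl3), whereas 132 of 135 on day 3 and all 41 on day 5 were in one led by G0s2, Il1r2 and Irg1 (961 CPM of Cxcl3). In the pool a cluster led by Retnlg, Gm5483 and S100a9 held 216 of 257 day 1 neutrophils and had 4106 CPM of Cxcl3. It also held 225 neutrophils of day 3 and 76 of day 5. A cluster led by Tnf, Icam1 and Gm12840 held 775 of 1002 on day 3 and had 837 CPM, with 41 neutrophils of day 1 and 145 of day 5. The levels of these pool clusters thus mix the days. In the CD45+ libraries the clusters of day 1 held few cells of other days, so day 1 and these clusters cannot be told apart there. The later days shared clusters: that led by Plac8 held 459, 220 and 82 monocytes/macrophages of days 3, 5 and 7, and that led by Ms4a7 held 494 and 397 of days 5 and 7 and 15.2% of the class on day 3. At steady state 408 of 560 monocytes/macrophages were in a cluster led by Hspa1a, Atf3 and Cd83 (8567 CPM of Cxcl2 and 637 CPM of Cxcl1), and 108 were in one led by Cbr2, Mgl2 and Cd81 (989 and 70.5 CPM). These clusters were drawn without the 4 members among the variable genes, and the values are a description with no test.

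Within a class of digested hearts after infarction, cells with Cxcl3 nearly always had Cxcl2. Among thinned cells, all 178 Cxcl3-positive neutrophils of CD45+ day 1 and all 285 of pool day 3 also had a Cxcl2 UMI, where 99.5% of all neutrophils had one on both. The lowest share was in pool monocytes/macrophages of day 5, where 200 of 215 Cxcl3-positive cells (93.0%) had Cxcl2, against 80.3% of all. At steady state it was 3 of 4 cells. In the blood and heart pool 37 of 49 Cxcl3-positive neutrophils of Hashtag 6 (75.5%) had Cxcl2, against 17.1% of all, as did 8 of 11 under Hashtag 7, and 5 of 10 monocytes/macrophages under Hashtag 7. None did under Hashtags 1 to 5, where at most 6 neutrophils of a hashtag had Cxcl3. Cxcl1 was found in 22.2% of Cxcl3-positive neutrophils of CD45+ day 3 against 14.8% of all, and in monocytes/macrophages of that library in 30.8% against 23.0%. On pool day 3 these values were 22.5% and 18.3% in neutrophils and 40.6% and 27.01% in monocytes/macrophages. In neutrophils of pool day 1 they were 11.9% and 11.9%, and in monocytes/macrophages of CD45+ day 1 they were 25.8% and 24.2%. The classes were not compared by a test here. Spearman's rho between Cxcl2 and Cxcl3 over thinned cells was 0.61 in neutrophils of CD45+ day 1 and 0.07 in those of pool day 5, as a description over cells of 1 library.

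The blood and heart pool gave far lower values. Cxcl2 in its neutrophils was 11.9, 5.55, 5.14, 6.95 and 4.54 CPM under Hashtags 1 to 5, 688 CPM under Hashtag 6 and 419 CPM under Hashtag 7. The last 2 hashtags stood above the other 5 without overlap of their counting intervals. Cxcl3 followed the same split, with 1.11 to 2.83 CPM under Hashtags 1 to 5, 298 CPM under Hashtag 6 and 44.2 CPM under Hashtag 7. In monocytes/macrophages Cxcl2 was 0.861 to 1.17 CPM under Hashtags 1 to 5, 173 CPM under Hashtag 6 and 78.6 CPM under Hashtag 7, and Cxcl3 was 0.316 to 1.01, 186 and 108 CPM. Cxcl1 had 1 UMI in all 6362 neutrophils and 15 UMIs in the 3538 monocytes/macrophages, 14 of them under Hashtag 6 and all 14 in 1 cell. Cxcl5 had 0 UMIs in neutrophils and 3 in monocytes/macrophages. The labels do not tie these hashtags to blood, heart, sham or infarct, so no group was compared.

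The Cxcl2 of Hashtags 6 and 7 was held by few cells. Under Hashtag 6, 17.1% of neutrophils had a Cxcl2 UMI after thinning (21.5% without), and under Hashtag 7 it was 14.02% (15.9%), against 0.648% to 1.73% under Hashtags 1 to 5. The top 10% of the neutrophils held 93.8% and 93.4% of the UMIs. A finer cluster of 504 neutrophils led by Basp1, Il1r2, Ier3 and G0s2, of which 240 came from Hashtag 6 and 246 from Hashtag 7, had 1223 CPM of Cxcl2 and 454 CPM of Cxcl3. The 3324 and 2534 neutrophils of the other clusters had 8.61 and 15.3 CPM of Cxcl2. In the same pool 0 of 57 T/NK cells had a UMI of any member, with an exact 95% upper limit of 6.27%.

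Side by side, neutrophils of the digested hearts had 21658 to 48300 CPM of Cxcl2 and neutrophils of the blood and heart pool at most 688 CPM. Their levels of Il1b, whose product induces these chemokines, were 7569 to 24860 CPM and 2350 to 3953 CPM, and those of Nfkbia, an NF-kB target, were 2998 to 10170 CPM and 189 to 388 CPM. Tissue, dissociation, sort, conditions and day all differed between these experiments, so their parts in the gap cannot be told apart, and no test was made.

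**Figure D4:**
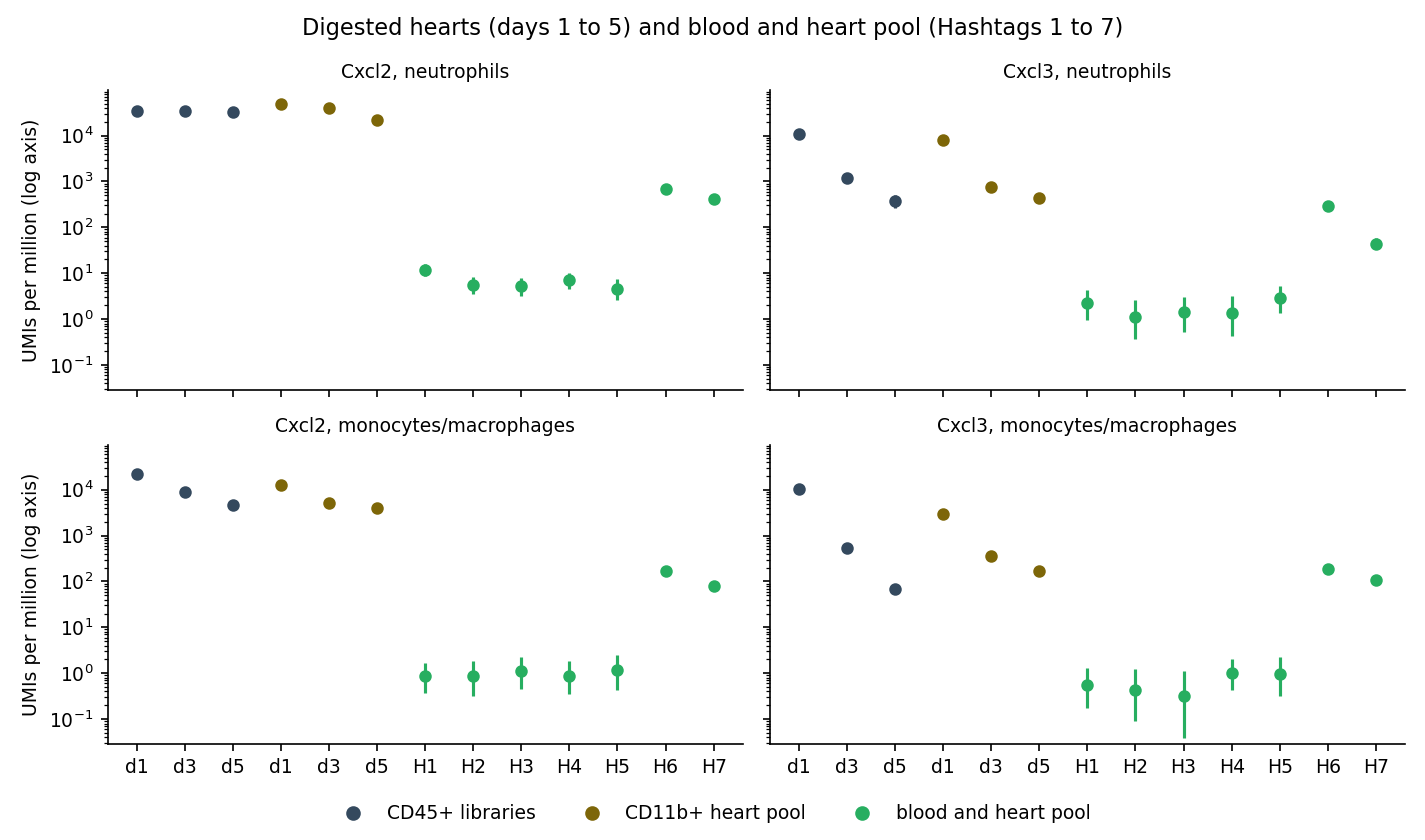
Cxcl2 and Cxcl3 (CPM, log axis, exact 95% Poisson intervals) in neutrophils and monocytes/macrophages of digested hearts on days 1, 3 and 5 (d1, d3, d5) and of the blood and heart pool by hashtag (H1 to H7). Neutrophil Cxcl2 is 21658 CPM or more in digested hearts, 688 and 419 CPM under H6 and H7, and at most 11.9 CPM under H1 to H5.

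The genes around the chemokines were read from lists of receptors, signalling, inducers and regulators. Of the neighbours on chromosome 5, Pf4 and Ppbp, known best from platelets, were lower in neutrophils than in monocytes/macrophages (Pf4 log2 -3.62, Ppbp log2 -4.39), and Ppbp fell in monocytes/macrophages from day 1 to day 5 (log2 -3.21, adjusted p = 0.0165). All 6 platelet markers together were at most 2.17 CPM in the neutrophil and monocyte/macrophage sums of digested hearts. Cxcr2, the main receptor, was 102-fold higher in neutrophils than in monocytes/macrophages (log2 6.67, SE 0.251, adjusted p = 3.78e-11). It fell in monocytes/macrophages from day 1 to day 5 (log2 -1.66, adjusted p = 0.0278), where neutrophil markers fell from 18420 to 521 CPM in the CD45+ libraries and from 2184 to 638 CPM in the pool. Their part in the Cxcr2 result was not tested. In neutrophils neither of the 2 receptors tested passed between days.

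Of 16 signalling genes tested in the class comparison, 9 were higher in neutrophils and 0 lower, beside 23.2% and 33.9% of all genes, led by Rac2 (log2 2.15), a GTPase of the neutrophil cytoskeleton and oxidase, Fgr (log2 1.94), a Src family kinase, and Gnai3 (log2 1.37), a Gi subunit. The list's median was log2 0.68. Between day 1 and day 5, 1 of 16 passed in monocytes/macrophages (Arrb2, an arrestin, higher on day 5, log2 0.89), where 5.15% of all genes were higher and 6.8% lower.

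Among the inducers, 8 of 11 tested were higher in neutrophils and 0 lower (23.2% and 33.9% of all genes), with Il1rap (log2 3.64), the co-receptor of the interleukin-1 receptor, Tnf (log2 3.22) and Il1a (log2 3.14) the largest. From day 1 to day 5, 5 of 11 fell in monocytes/macrophages (6.8% of all genes), led by Il1a (log2 -3.24, adjusted p = 0.00857), Il1rap (log2 -2.08) and Il1b (log2 -2.06), and 3 of 11 fell in neutrophils (5.03% of all genes), namely Tlr4 (log2 -2.47), Il1rap (log2 -2.42) and Il1a (log2 -1.72). By day 3, Il1b alone of the list had fallen in monocytes/macrophages (log2 -1.37, adjusted p = 0.0476; 0.386% of all genes), and 0 of 11 passed in neutrophils. List medians for day 5 were log2 -0.64 and -0.87 in monocytes/macrophages and neutrophils, beside -0.03 and -0.02 over all genes tested.

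The transcription factor list had 13 of 16 genes higher in neutrophils and 0 lower (23.2% and 33.9% of all genes), led by Nfkbid (log2 3.30), Nfkbiz (log2 2.42) and Tnfaip3 (log2 2.36), which are NF-kB regulators and targets. On day 5, 5 fell and 1 rose in monocytes/macrophages (6.8% and 5.15% of all genes), with Hif1a (log2 -1.64), the hypoxia-inducible factor, and Nfkb1 (log2 -1.02) lower and Fos (log2 0.89) higher, and 1 fell in neutrophils (Bcl3, log2 -1.84), where 5.03% of all genes did. Of the mRNA decay factors 3 of 8 were higher in neutrophils and 0 lower, with 23.2% of all genes higher, so the count says little of the list. They were Zc3h12a (log2 1.45), Zfp36 (log2 0.96) and Zfp36l1 (log2 0.90), and 0 of the list passed between days in either class. Among the other neutrophil attractants and receptors, 8 of 9 were higher in neutrophils and 1 lower (23.2% and 33.9% of all genes), with Alox5 (log2 4.42), which starts leukotriene synthesis, Fpr1 (log2 4.10) and Ccl3 (log2 3.61) the largest. In neutrophils 2 of 9 fell by day 3 (Ccl4, log2 -2.51, and Fpr1, log2 -2.10; 1.63% of all genes) and 5 of 9 by day 5 (5.03%). In monocytes/macrophages 4 of 9 fell by day 5 (6.8% of all genes), led by Fpr1 (log2 -3.34), Fpr2 (log2 -2.67) and Ltb4r1 (log2 -2.58). Fpr1 was 17.2-fold higher in neutrophils, and the neutrophil markers of this class went down over the same days by the amounts given above. Their part in these falls was not tested.

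The genes with the most similar pattern over the 14 sums of class, day and experiment in digested hearts were found among 6463 genes with a mean of at least 10 CPM, by Pearson's r of log2(CPM + 1). For Cxcl2 they were Il1a (r = 0.99), Id1 (r = 0.97) and Lilra6 (r = 0.97). For Cxcl3 they were S100a6 (r = 0.96), Tes (r = 0.93) and Egln3 (r = 0.92), and for Cxcl1 they included Psmg3 (r = 0.89) and Nme2 (r = 0.88). Cxcl5, with a mean of 7.48 CPM, was under the level set for this. The 14 sums share libraries, mice and depth, so r describes them and carries no p. Il1a was at 1460 CPM in pool neutrophils of day 1, the sum with the highest Cxcl2, and at 60.5 CPM in pool monocytes/macrophages of day 5, the sum with the lowest.

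**Figure D5:**
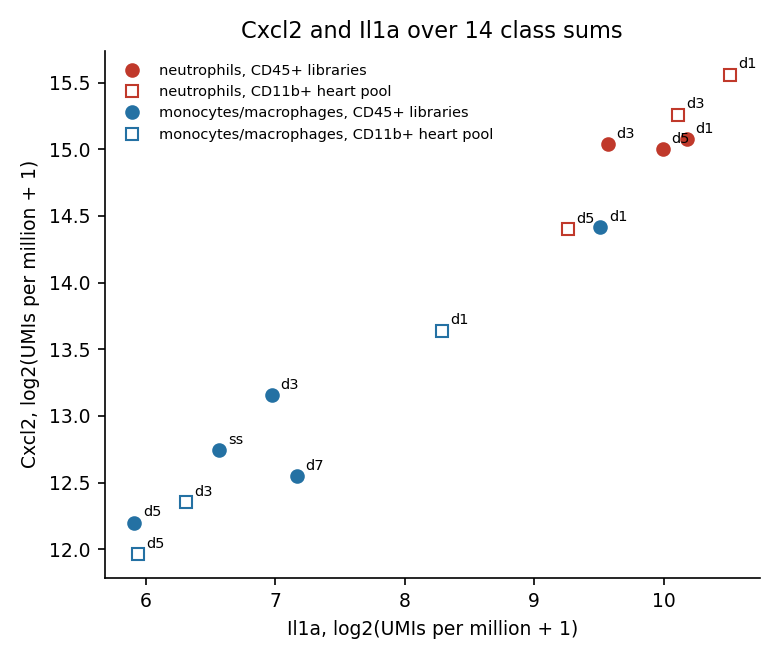
Cxcl2 against Il1a, both as log2(CPM + 1), over the 14 sums of neutrophils (red) and monocytes/macrophages (blue) of the CD45+ libraries (circles) and the CD11b+ heart pool (squares), with days beside the points (ss, steady state). The points rise together from pool monocytes/macrophages of day 5 to pool neutrophils of day 1 (r = 0.99 over 14 sums that share libraries).

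The comparisons of days rest on the experiment term: without it no member was called for any pair of days in either class. In the class comparison Cxcl2 alone stayed past the threshold without the term for the day and experiment.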

How the data were processed

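Single-cell RNA-seq gave unique molecular identifier counts per gene and cell, deposited by the authors as unnormalised count matrices. The headers of both pools name Cell Ranger 3.0.2, and the version for the CD45+ libraries is not given in the sources used here. The build was mm10 (GRCm38), per the submitters' processing notes. Antibody counts in the pools were deposited beside the genes and served only to assign hashtags.

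Cells needed 200 genes or more and no more than 10% of UMIs from mitochondrial genes; cells with several hashtags or none were left out, as were called doublets of the CD45+ libraries. Cells were clustered in Scanpy 1.11.5 (2000 variable genes without the 4 members, 30 principal components, 15 neighbours, Leiden resolution 0.05 for classes and 0.5 for finer clusters). The resolution for classes was chosen after clusters had been seen. Raw counts were summed per class, day and experiment where at least 30 cells were present, giving 2 sums per day. Sums were tested with edgeR 4.0.16 (quasi-likelihood, TMM, an experiment term, or a term for each day and experiment in the class comparison; Benjamini-Hochberg over all genes tested, threshold 0.05), and DESeq2 1.42.0 was an alternative. The scripts were tested on simulated sums with 200 genes changed by log2 2 up or down. The fit of day 3 against day 1 recovered 54.5% of them in neutrophils and 91.5% in monocytes/macrophages. The class comparison recovered 95.5%. False calls were 2.68%, 8.5% and 4.98% of the calls, in the same order. The simulated sums came from an average profile with a common dispersion and no difference between experiments. These rates need not hold for the real sums.

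All 4 members were named, with at most 3 genes per list and comparison, those with the largest changes past the threshold, and the 3 genes most like each member; some results of this rule are not reported here. The members and lists were chosen with earlier results of these data known. The alternatives were another scaling, tool, filter, class naming, clustering with the members, mitochondrial limit, thinning and hashtag call, dropping the experiment term and leaving out each sum. Leaving out cells of finer clusters with another name was chosen after seeing the data. Intervals and limits on levels and shares cover counting error only.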

Additional observations from a re-analysis of the deposited data

How the results depend on the processing

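The number of members past the threshold was compared with 1, 1 and 0 (neutrophils; days 3 and 5 against day 1, then day 5 against day 3), 1, 4 and 0 (monocytes/macrophages, the same pairs), 3 (class comparison) and 0 and 0 (differences of the classes). With no filter on low counts it was 2, 3 and 1 in neutrophils, 3 in monocytes/macrophages on day 3 and 1 for the difference on day 3. Without the replicate block, meaning the experiment or unit term, it was 0 for day 3 and 0 for day 5 against day 1 in both classes, and 1 in the class comparison. The labels give these sums no shared replicate numbers, and the block stands for the experiment. Total counts alone gave 2 in neutrophils and 0 in monocytes/macrophages on day 3, and DESeq2 gave 2 in neutrophils on day 5 and 3 in monocytes/macrophages on day 3. In monocytes/macrophages on day 3 it was 2 with classes from each cell's own markers, 0 with a mitochondrial limit of 20% and 0 without cells of finer clusters with another name.

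Leaving out each sum in turn gave 1 to 2, 1 to 2 and 0 to 2 members in neutrophils, 0 to 4, 3 to 4 and 0 to 2 in monocytes/macrophages, 3 to 3 in the class comparison, and 0 to 1 and 0 to 0 for the differences. A left-out sum leaves 1 sum for its day, which is assumed to vary like the others.

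Reversed values were all differences of the classes that passed no threshold. For Cxcl5 on day 3 they were log2 0.89 (own markers), 0.10 (limit of 20%), 0.38 (no replicate block), 0.23 (total counts alone), 0.28 (without CD45+ day 3) and 0.78 (finer clusters), and on day 5 they were 0.35, 0.75, 0.46 and 0.0038 (own markers, no replicate block, total counts alone, finer clusters). For Cxcl1 on day 5 they were 0.67 (total counts alone), 0.15 (without CD45+ day 1) and 0.0057 (without CD45+ day 5), and for Cxcl2 on day 5 -0.080 (without CD45+ day 5). For Cxcl3 they were -0.95 (without CD45+ day 1) and -0.11 (without pool day 5) on day 3, and -0.60 (without CD45+ day 1) and -0.34 (without CD45+ day 5) on day 5. Leaving out 1 sum moved these differences over -5.48 to 0.28 (Cxcl5, day 3), -0.43 to 0.15 (Cxcl1, day 5), -0.080 to 1.10 (Cxcl2, day 5), -0.95 to 0.96 (Cxcl3, day 3) and -0.60 to 1.30 (Cxcl3, day 5). The causes were not tested.

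The median share of cells with a UMI was 23.4%, and 17.3% at 1000 UMIs per cell and 45.2% without thinning. Of the alternatives for single members, 378 kept direction and side of the threshold, 29 newly passed it, 21 no longer passed and 18 reversed. Depth limits Cxcl5 in neutrophils, where counts of 0 to 18 gave no test between days or classes; its differences of the classes rest on these counts.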
